A study of Mus musculus with 10 samples.

Results

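The unfolded protein response and the heat shock response were examined in Ly6G+ cells of mice with a myocardial infarct (MI), over a fixed set of 40 genes of the 28185 in the deposited table. The genes were chosen by name for their known role, with earlier results of these data known. Of them, 30 are grouped here as ER genes, for the endoplasmic reticulum (ER) and the stress responses tied to it. They include 14 chaperones and folding enzymes and 6 stress sensors and transcription factors. The rest of the 30 are 4 genes of the integrated stress response and 6 genes of ER-associated degradation and the translocon. The other 10 are heat shock genes: 7 cytosolic chaperones, the mitochondrial pair Hspd1 and Hspe1, and Hsf1, the transcription factor of the response. All 40 symbols matched a single gene identifier each. A filter on low values (a mean of at least 10 normalized counts over all libraries) left 39 of them for testing, 29 ER and 10 heat shock genes. Trib3 did not pass.

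Mouse neutrophils carry Ly6G on their surface, and the cells were enriched with anti-Ly6G magnetic beads from adult male C57Bl/6J mice on day 3 after the left coronary artery had been tied off. All 4 groups came from infarcted mice. MI cells (libraries 13, 19 and 20) came from the left ventricle of mice without cell treatment. MI + MSC cells (15, 17 and 18) came from the left ventricle of mice that had received syngeneic bone marrow mesenchymal stromal cells (MSC) under the skin shortly after ligation. Blood cells (21 and 22) and Blood + MSC cells (23 and 24) came from the blood of mice without and with MSC. The ventricles were cut up and digested in a warmed enzyme solution with a mechanical dissociator before the beads were added, a step blood does not need, so tissue and digestion cannot be told apart in any comparison of cardiac with blood cells. The MSC were placed at a distance from the heart. The study describes the libraries of a group as coming from separate mice, while the labels name no mouse for a library, nor which cardiac and blood libraries share one. The p-values measure the spread between these libraries.

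Secreted and membrane proteins fold in the ER with the help of chaperones, of which Hspa5 (BiP) is the main one, and of protein disulfide isomerases. When unfolded proteins build up, the sensors Ern1 (IRE1), Eif2ak3 (PERK) and Atf6 switch on Xbp1, Atf4 and further factors that raise chaperones, degradation and, if stress lasts, Ddit3 (CHOP). Unfolded protein in the cytosol is met by another system, in which Hsf1 raises Hsp70, Hsp90 and their partners after heat and other stresses. Neutrophils are short-lived cells with little ER, unlike cells that secrete protein for a living, in which the unfolded protein response is best known.

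Reads on genes, recovered from the table, ranged from 148594 in MI 13 to 8602711 in Blood + MSC 24, and 952 to 48434 of them fell on the 40 genes. MI 13 and Blood 21 (268860 reads) stood apart from the rest. A single read in them is worth 8.40 and 7.07 normalized counts, 8 and 10 of the 40 genes had 3 reads or fewer, and the log2 levels of MI 13 correlated with those of the other 5 cardiac libraries at r = 0.605 to 0.733, against 0.892 to 0.968 among those 5. Markers of other cell types were present beside those of neutrophils. The summed level of 12 neutrophil markers was 2547 to 13560 normalized counts in cardiac and 16760 to 53440 in blood libraries. Ly6g itself was at 4.75 to 26.9 in the heart against 41.2 to 644.5 in blood. For 10 monocyte and macrophage markers the sum was 2883 to 11520 in the heart and 5758 to 8196 in blood. It was above the neutrophil sum in every cardiac library except MI + MSC 17, though only just in MI 19. The sum of 10 cardiomyocyte markers was 3310 to 24800 in the heart and 22.6 to 63.6 in blood, where 9, 4, 2 and 0 of the 10 were at 0 reads in libraries 21, 22, 23 and 24. The sum of 8 endothelial markers was 583 to 2472 in the heart, 39.9 to 76.7 in 3 of the blood libraries and 615 in Blood 21, where Pecam1, which platelets also carry, made up 586 of it. In bulk RNA, fewer cells of a type and less RNA per cell cannot be told apart.

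Per transcript length, in TPM (transcripts scaled to a fixed total per library), Hspa8, the constitutive cytosolic Hsp70, was the most abundant of the 40 genes in every group, with 2282 ± 770 (SD, n = 3) in MI and 1918 ± 365 (n = 3) in MI + MSC. The blood groups had 718 ± 154.5 (n = 2) without and 782 ± 44.6 (n = 2) with MSC. Calr (calreticulin, a calcium-binding lectin chaperone) followed in MI with 736 ± 291, in Blood with 439 ± 14.1 and in Blood + MSC with 517 ± 92.6. In MI + MSC, Atf4 followed Hspa8 with 1056 ± 354 TPM, above Calr with 927 ± 227, a difference smaller than either SD. Hspa1b, an inducible Hsp70, ranked next to Hspa5 in MI with 635.5 ± 343 TPM. It stood at 159 ± 99.7 in the heart after MSC, at 9.07 ± 3.42 in untreated blood and at 12.6 ± 7.80 in blood after MSC. The levels of Hspa8, Hspa1a, Hspa1b, Hsp90aa1, Hspd1 and Hspe1 are uncertain, since 64.1% to 81.1% of their transcripts is shared, at 98% identity or more, with another gene or pseudogene. The treatment of reads that map to several places is not given in the sources used here.

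**Figure D1:**
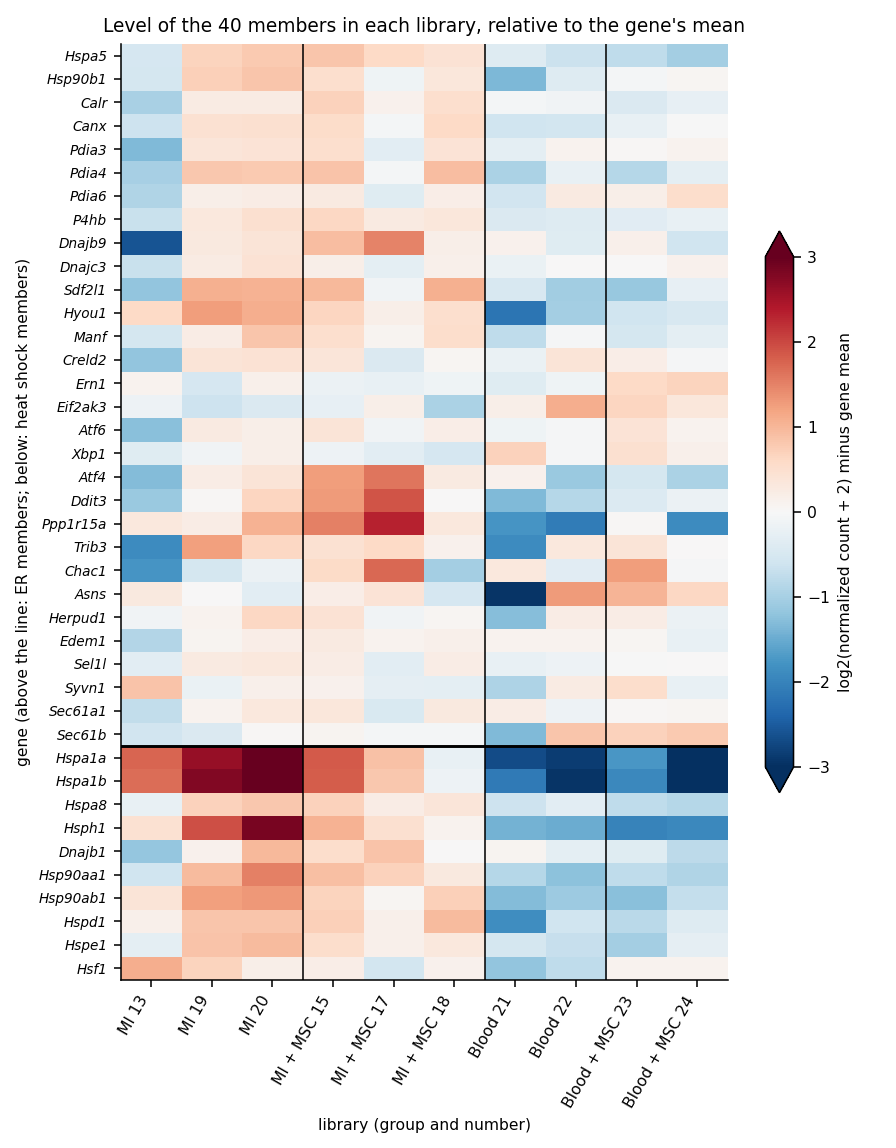
Each row is one of the 40 genes and each column a library; colour gives log2(normalized count + 2) minus the mean of the gene over the 10 libraries, with the scale ending at -3 and 3. Hspa1a, Hspa1b and Hsph1 are red in the MI libraries and blue in the 4 blood libraries, while most ER rows show no such split, and MI 13 is blue in many ER rows.

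Among the 39 genes tested, the largest differences between cardiac and blood cells lay in the inducible heat shock genes. Hspa1a (ENSMUSG00000091971, GRCm39 chr17:35188166-35191132, minus strand) and Hspa1b (ENSMUSG00000090877, chr17:35175412-35178214, minus strand) encode the stress-inducible Hsp70 from neighbouring genes without introns. Their upstream regions are shown because they are near copies, which bears on how far their values count as separate. In the RefSeq promoter windows (GRCm38.p6), the 250 bases before the start sites, at chr17:34972157-34972406 and chr17:34959239-34959488, both on the minus strand, match at 247 positions. The 3 capitals mark the differences, C44T, T47C and T249G from Hspa1a to Hspa1b, counted from 1 at the first base printed.
Hspa1a: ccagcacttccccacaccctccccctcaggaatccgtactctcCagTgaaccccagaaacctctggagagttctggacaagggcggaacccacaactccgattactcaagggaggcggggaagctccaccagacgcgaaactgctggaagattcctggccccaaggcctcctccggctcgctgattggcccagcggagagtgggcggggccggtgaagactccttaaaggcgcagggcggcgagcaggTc
Hspa1b: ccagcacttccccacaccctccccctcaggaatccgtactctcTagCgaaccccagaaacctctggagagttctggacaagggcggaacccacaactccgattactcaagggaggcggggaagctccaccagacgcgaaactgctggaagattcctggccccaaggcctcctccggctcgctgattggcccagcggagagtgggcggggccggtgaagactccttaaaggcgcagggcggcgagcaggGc

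Hspa1a had 345, 635 and 1128 normalized counts in MI libraries 13, 19 and 20, against 14.1 and 12.3 in Blood libraries 21 and 22. No MI library came near a Blood library, although Blood 21 holds only 2 reads of the gene. The log2 fold change was 5.37 ± 0.61 (standard error; limma, adjusted p = 0.000161). Hspa1b had 420, 894 and 1392 in MI and 28.3 and 14.9 in Blood, a log2 fold change of 5.16 ± 0.64 (limma, adjusted p = 0.000262). With MSC in both tissues the distance was smaller and still passed the test. Hspa1a had 369, 191 and 87.5 in MI + MSC libraries 15, 17 and 18 and 28.9 and 10.9 in Blood + MSC libraries 23 and 24, a log2 fold change of 3.21 ± 0.61 (limma, adjusted p = 0.00662). Hspa1b had 456, 227 and 115 against 32.6 and 11.1, a log2 fold change of 3.44 ± 0.64 (limma, adjusted p = 0.00575). As the 2 genes share 74.0% and 78.5% of their transcripts with each other, their agreement is not independent.

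Hsph1 and the cytosolic Hsp90 genes followed at smaller size, while Dnajb1, given further below, did not pass. Hsph1 (Hsp110), a nucleotide exchange factor that reloads Hsp70 and shares no long stretch with another gene, had 84.0, 236.5 and 446 normalized counts in MI against 21.2 and 20.1 in Blood. All MI libraries lay above both Blood libraries, with a log2 fold change of 3.21 ± 0.56 (limma, adjusted p = 0.00191). In MI + MSC it had 127, 84.95 and 65.1 against 13.7 and 14.3 in Blood + MSC, a log2 fold change of 2.51 ± 0.56 (limma, adjusted p = 0.0137). Hsp90ab1, the constitutive cytosolic Hsp90, had 277, 503 and 524.5 in MI against 84.8 and 98.1 in Blood, a log2 fold change of 2.17 ± 0.35 (limma, adjusted p = 0.00134). It had 339, 223 and 351 in MI + MSC against 88.0 and 128 in Blood + MSC, a log2 fold change of 1.47 ± 0.35 (limma, adjusted p = 0.0195). Hsp90aa1, the inducible Hsp90, had 269, 800 and 1178 in MI against 226 and 174 in Blood, so that MI 13 lay just above Blood 21. It rose by 1.66 ± 0.51 on the log2 scale (limma, adjusted p = 0.0280), a call lost without any one of MI 19, MI 20, Blood 21 and Blood 22. With MSC it had 771, 663.5 and 506 against 241 and 219, and did not pass at 1.46 ± 0.51 (limma, adjusted p = 0.0767).

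The mitochondrial chaperonin Hspd1 (Hsp60) and its lid Hspe1 (Hsp10) are transcribed away from each other from a shared promoter, which carries the heat shock element (HSE) searched for here. That element was spelled as 3 alternating units with 2 free bases between them, GAA NN TTC NN GAA or TTC NN GAA NN TTC, on both strands. It was found in 3 of the 6 heat shock genes with a promoter window and in none of the 26 ER genes with one. Over all 32851 windows of 300 bases the share was 0.603%. The 3 are Hsph1, Hspd1 and Hspe1, and the last 2 share theirs. Hspa1a, Hspa1b and Dnajb1 had a window and no match to this spelling. In Hsph1 the matches lie after the start site. The same stretch, chr1:55088051-55088084 in GRCm38.p6, read in the direction of each gene, is shown for the pair because it serves both. Capitals mark the units, 4 in a row.
Hspd1, minus strand: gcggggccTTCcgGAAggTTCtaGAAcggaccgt
Hspe1, plus strand: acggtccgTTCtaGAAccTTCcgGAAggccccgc

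Hspd1 had 92.45, 149 and 149 normalized counts in MI and 21.2 and 53.9 in Blood, and rose by 1.84 ± 0.41 on the log2 scale (limma, adjusted p = 0.00699). Hspe1 had 33.6, 76.9 and 82.35 against 28.3 and 24.7 and did not pass at 1.12 ± 0.42 (limma, adjusted p = 0.0559). Under MSC neither passed, with log2 fold changes of 1.20 ± 0.41 and 0.97 ± 0.42 (limma, adjusted p = 0.0743 and 0.138). Hsf1 had 75.6, 55.8 and 39.1 in MI against 14.1 and 19.5 in Blood, and rose by 1.61 ± 0.38 (limma, adjusted p = 0.00913). In MI + MSC it had 39.9, 22.96 and 38.0 and in Blood + MSC 37.3 and 37.2, with no such distance (log2 fold change -0.18 ± 0.38). Hspa8 and Dnajb1, an Hsp40 that feeds substrates to Hsp70, passed in neither comparison in limma, at 0.89 ± 0.45 and 0.10 ± 0.51 without MSC. DESeq2 called Hspa8 higher in both, at 0.97 without and 1.28 with MSC (adjusted p = 0.00912 and 0.000366), and called Hspe1 higher without MSC at 1.495 (adjusted p = 0.0185), as did edgeR at 1.45 (adjusted p = 0.0155).

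In all, 7 of the 10 heat shock genes passed as higher in MI than in Blood, where 21.2% of the 11549 genes tested did, and none passed as lower, where 13.5% did. Over all genes that is 2452 higher and 1556 lower, a split that became 3778 and 812 when libraries were scaled by their totals, 936 and 1654 in limma-voom, and 2044 and 2060 in edgeR. The median log2 fold change of the 10 was 1.75, against 0.15 over all genes tested. Between MI + MSC and Blood + MSC, 4 of 10 passed as higher (8.23% of all genes) and none as lower (5.85%), with a median of 1.35 against 0.09. There the split over all genes was 951 higher and 676 lower, 884 and 952 with TMM scaling, and 2529 and 2355 in limma-voom. Hspa1a, Hspa1b, Hsph1, Hsp90ab1 and Hspd1 passed in MI against Blood in each of the 20 alternative settings, those without MI 13 or Blood 21 included. Of the 4 calls with MSC, none was kept without Blood + MSC 24, 2 were kept without MI + MSC 15 or without Blood + MSC 23, and 3 without MI + MSC 18. Markers of heart muscle moved with these genes between the tissues, since 10 of 10 cardiomyocyte markers passed as higher in both comparisons. So did 7 of 8 endothelial markers in both, 4 and 3 of 5 mural markers and 5 and 3 of 8 fibroblast markers without and with MSC, and none of these passed as lower. The endothelial sum was 2353, 2277 and 2472 in MI 13, 19 and 20, where Hspa1a was lowest in 13 and highest in 20. In MI + MSC 15, 17 and 18 that sum was 583, 868 and 1066, in the opposite order to Hspa1a. The cardiomyocyte sum and Hspa1a were both lower in MI + MSC than in MI by group means. Within the groups, MI 20 had the lowest cardiomyocyte sum of its group (8364, against 23740 and 24800) and the highest Hspa1a, and MI + MSC 18 had the highest sum (13050, against 3310 and 5060) and the lowest Hspa1a. Their part in the result was not tested.

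**Figure D2:**
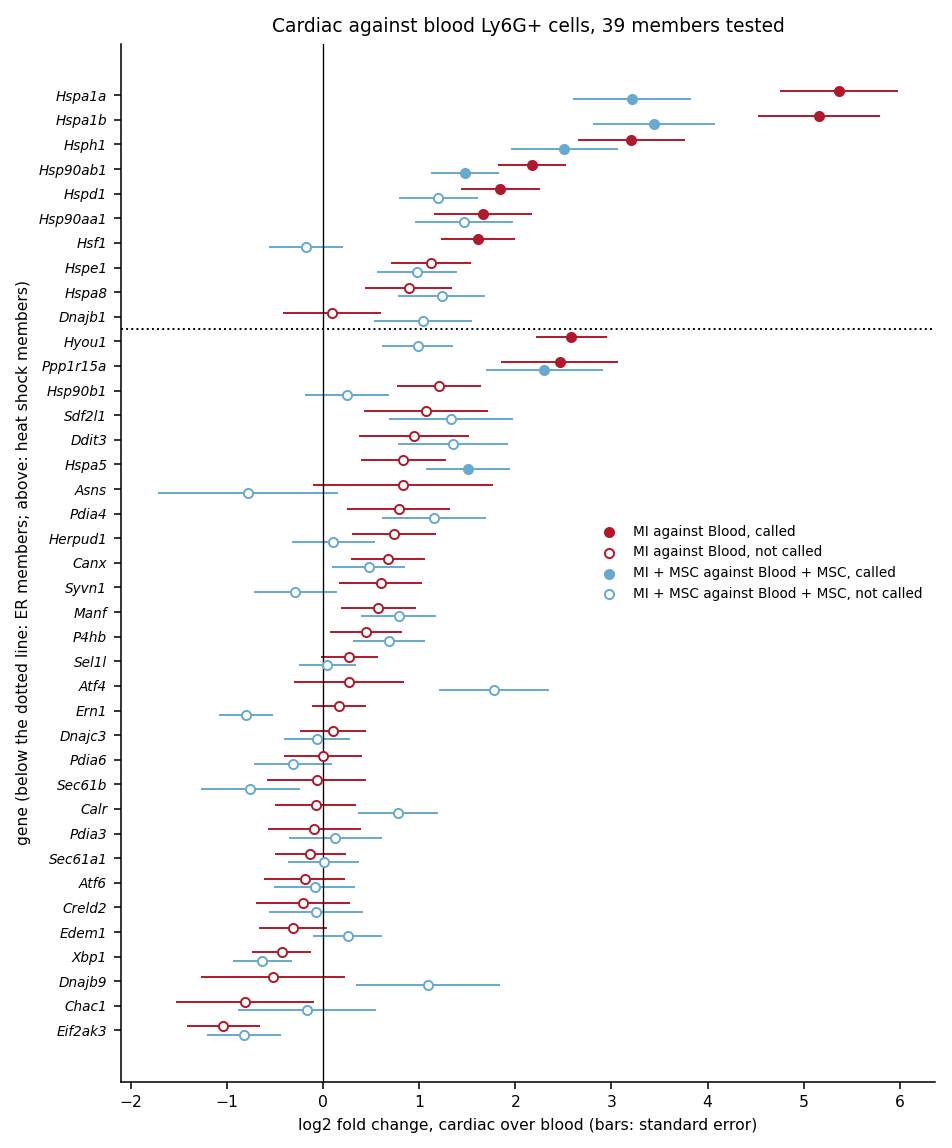
The log2 fold change of cardiac over blood cells (x axis; bars are standard errors) for the 39 genes tested (y axis), without MSC in red and with MSC in blue, filled where the gene passed the test. Heat shock genes, above the dotted line, reach 5.37, and ER genes, below it, lie between -1.04 and 2.58 without MSC.

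Among ER chaperones and folding enzymes, 1 of the 14 passed as higher in each comparison, and it was a different gene. Over all genes, 21.2% passed as higher without MSC and 8.23% with MSC. None of the 14 passed as lower, beside 13.5% and 5.85% over all genes. Hyou1 (Grp170, the Hsp110-type exchange factor of Hspa5; ENSMUSG00000032115, chr9:44290418-44303666, plus strand) had 109, 174 and 154 normalized counts in MI against 14.1 and 34.4 in Blood. Every MI library was above both Blood libraries, of which Blood 21 had 2 reads, and the log2 fold change was 2.58 ± 0.37 (limma, adjusted p = 0.00067). The call held in all 20 alternatives. With MSC it had 112, 80.4 and 102 against 46.5 and 50.1, still without overlap, and missed the threshold at 0.98 ± 0.37 (limma, adjusted p = 0.0984). Hspa5 had 866, 1960 and 2136 in MI and 947 and 784 in Blood. MI 13 lay within the Blood range, and the log2 fold change of 0.83 ± 0.44 did not pass (limma, adjusted p = 0.16). With MSC, Hspa5 had 2196, 1864 and 1671 against 727 and 613 and passed at 1.51 ± 0.44 (limma, adjusted p = 0.0431), a call lost without any one of MI 19, MI + MSC 15, 17 and 18, and Blood + MSC 23 and 24, and with TMM scaling or a lower filter.

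Hsp90b1 (Grp94, the Hsp90 of the ER) lay at the threshold without MSC. It had 202, 481 and 518 in MI against 113 and 223 in Blood, with MI 13 below Blood 22, at 1.21 ± 0.44 (limma, adjusted p = 0.0514). With MSC it had 413, 269 and 371.5 against 279.5 and 303, at 0.25 ± 0.44. The disulfide isomerases Pdia3, Pdia4, Pdia6 and P4hb had log2 fold changes of -0.09 to 0.78 without MSC and -0.32 to 1.155 with MSC, and none passed. The median over the 14 chaperones was 0.51 and 0.73, against 0.15 and 0.09 over all genes.

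Many of these chaperone genes share the ER stress response element (ERSE), CCAAT and CCACG 9 bases apart, searched on both strands. An exact match stood in the windows of 8 of the 26 ER genes, in none of the 6 heat shock genes and in 0.119% of all windows. In Hspa5 (ENSMUSG00000026864, GRCm39 chr2:34661982-34668880, plus strand) it lies at bases -65 to -47 before the start. The whole upstream region, chr2:34771840-34772089 in GRCm38.p6, plus strand, is given to show its place among further CCAAT boxes. Capitals mark the fixed letters of the exact match.
Hspa5: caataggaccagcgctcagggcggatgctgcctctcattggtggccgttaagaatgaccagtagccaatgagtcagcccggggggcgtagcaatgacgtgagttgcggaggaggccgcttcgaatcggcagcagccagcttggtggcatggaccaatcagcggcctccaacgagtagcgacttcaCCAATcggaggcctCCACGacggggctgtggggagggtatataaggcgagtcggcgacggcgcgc
The other sites are given with 8 bases on each side, in the direction of the gene, with the element reading CGTGG to ATTGG where it is on the opposite strand. They are shown so that the shared letters can be set beside the values of each gene. No difference between genes was tested.
Hsp90b1, chr10:86705630-86705664, minus strand: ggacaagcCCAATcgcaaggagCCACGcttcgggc
Hsp90b1, chr10:86705525-86705559, minus strand: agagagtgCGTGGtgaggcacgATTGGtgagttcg
Calr, chr8:84847067-84847101, minus strand: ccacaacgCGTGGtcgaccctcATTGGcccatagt
Canx, chr11:50325792-50325826, minus strand: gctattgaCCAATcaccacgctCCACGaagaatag
Pdia6, chr12:17266483-17266517, plus strand: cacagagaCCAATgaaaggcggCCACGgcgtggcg
Dnajc3, chr14:118937819-118937853, plus strand: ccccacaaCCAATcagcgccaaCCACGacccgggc
Creld2, chr15:88819512-88819546, plus strand: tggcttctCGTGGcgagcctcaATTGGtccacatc
Syvn1, chr19:6046524-6046558, plus strand: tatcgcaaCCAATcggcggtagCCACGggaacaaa

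Of these 8 genes, none passed in limma without MSC (21.2% of all genes passed as higher) and only Hspa5 with MSC (8.23%). Without MSC their log2 fold changes were 0.83 (Hspa5), 1.21 (Hsp90b1), 0.67 (Canx, calnexin, a membrane lectin chaperone), 0.60 (Syvn1, the HRD1 ubiquitin ligase), 0.10 (Dnajc3, an ER Hsp40), -0.01 (Pdia6), -0.08 (Calr) and -0.21 (Creld2). With MSC, Calr stood at 0.78 and Syvn1 at -0.29, neither past the test. A match says only that these letters are present. Hyou1, Manf, Atf6, Sec61a1, Hspa8, Hsp90aa1, Hsp90ab1 and Hsf1 were not in the promoter table.

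**Figure D3:**
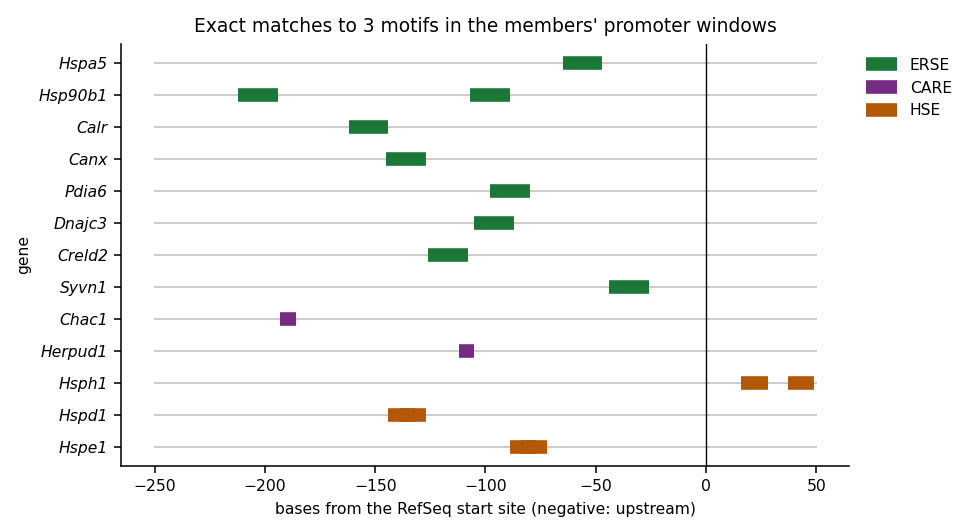
Exact matches to the ERSE, the HSE and the C/EBP-ATF response element (CARE) in the promoter windows of the genes that have one, by distance in bases from the RefSeq start site (x axis). ERSE matches of 8 ER genes lie before the start, and the HSE of the Hspd1 and Hspe1 pair appears in both genes.

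None of the 6 sensors and transcription factors passed in either comparison of tissue in limma, with median log2 fold changes of -0.02 and -0.36. Over all genes, 21.2% passed as higher and 13.5% as lower without MSC, and 8.23% and 5.85% with MSC. With only 6 genes, a count of 0 says little beside those shares. All cardiac libraries lay below both blood libraries in 2722 of the 11549 genes without MSC and in 3429 with MSC. Eif2ak3 had 118, 84.6 and 96.25 normalized counts in MI against 148 and 282 in Blood, with all MI libraries lower, at a log2 fold change of -1.04 ± 0.38 that narrowly missed the threshold (limma, adjusted p = 0.0535). It passed as lower in 8 of the 20 alternatives, among them TMM scaling, edgeR, DESeq2 and limma-voom, at -1.04 to -1.62. Ern1 had 118, 75.9 and 122.5 in MI and 84.8 and 100.1 in Blood, overlapping, and 96.0, 94.1 and 99.7 in MI + MSC against 166 and 175 in Blood + MSC, at -0.81 ± 0.28 (limma, adjusted p = 0.0761). That second difference passed as lower in 8 of the 20 alternatives, edgeR, DESeq2 and limma-voom included. Xbp1 had 219, 263 and 318 in MI against 459 and 277 in Blood. After MSC the cardiac libraries had 253, 227 and 199, against 394 and 313. With MSC both blood libraries lay above all cardiac libraries, without MSC MI 20 lay between them, and the log2 fold changes of -0.43 ± 0.31 and -0.63 ± 0.31 did not pass. Spliced and unspliced Xbp1 are counted together here. Atf6 had log2 fold changes of -0.20 ± 0.42 and -0.09 ± 0.42.

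Downstream of Eif2ak3, the translation factor eIF2 is phosphorylated and Atf4 is made, a path that other kinases also use and that is called the integrated stress response. Atf4 binds the CARE, which was searched as TTGCATCA on both strands. It was found before the start in 2 of the 26 ER genes and in 0.791% of all windows. Both are shown, with capitals for the element.
Chac1, chr2:119351041-119351064, plus strand: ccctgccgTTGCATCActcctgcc
Herpud1, chr8:94386309-94386332, plus strand: acggcgggTTGCATCAgcccgcac

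Ppp1r15a (GADD34), which directs the phosphatase that ends eIF2 phosphorylation, was the only gene of this arm to pass in limma, and it passed in both comparisons. It had 126, 118 and 211.5 normalized counts in MI against 28.3 and 22.1 in Blood, without overlap, at a log2 fold change of 2.46 ± 0.61 (limma, adjusted p = 0.0111). It had 291, 507 and 127 in MI + MSC against 104 and 25.9 in Blood + MSC, again without overlap, at 2.30 ± 0.61 (limma, adjusted p = 0.0293). The first call was lost without Blood 22 and in limma-voom, and the second without MI + MSC 15, MI + MSC 17 or Blood + MSC 24. Atf4 had 202, 584 and 656 in MI against 544 and 230 in Blood, overlapping, and 1192, 1513 and 602 in MI + MSC against 347 and 256 in Blood + MSC, without overlap, at 1.78 ± 0.57 (limma, adjusted p = 0.0597). Ddit3 had 25.2, 57.7 and 89.6 in MI against 21.2 and 30.5 in Blood. After MSC the cardiac libraries had 141, 213.5 and 57.0, against 42.3 and 49.5. It was above the blood cells of mice with MSC in each MI + MSC library, yet its log2 fold change of 1.35 ± 0.57 did not pass (limma, adjusted p = 0.132). With MSC, both Atf4 and Ddit3 were called higher in edgeR (adjusted p = 0.0290 for each), DESeq2 (adjusted p = 0.00208 and 0.0169) and limma-voom (adjusted p = 0.0186 and 0.0188). Asns, the asparagine synthetase, was low, with 8.81 to 18.4 in cardiac and 0 to 35.1 in blood libraries, and Trib3 had 32 reads at most.

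Genes of ER-associated degradation and the translocon stayed within 0.76 on the log2 scale in both comparisons. These 6 are Herpud1, Edem1, Sel1l, Syvn1, Sec61a1 and Sec61b, none of which passed. Over all genes, 21.2% passed as higher and 13.5% as lower without MSC, and 8.23% and 5.85% with MSC. Edem1, which hands misfolded glycoproteins to degradation, had 303 to 644 normalized counts in MI and 608 and 607 in Blood. Sec61b, a subunit of the protein-conducting channel, ranged from 25.2 to 39.6 in MI, against 14.1 and 69.5 in Blood. After MSC it ranged from 36.6 to 40.6 in the heart, against 63.6 and 67.8. Blood 21, with 2 reads of the gene, set the spread in Blood.

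Over all 29 ER genes tested, 2 passed as higher and none as lower in each comparison, against 21.2% and 13.5% of all genes without MSC and 8.23% and 5.85% with MSC. The medians were 0.27 and 0.12, beside 0.15 and 0.09 over all genes. Those counts depended on the shallow libraries more than the heat shock counts did. Without MI 13, 8 of 29 ER genes and 9 of 10 heat shock genes passed in MI against Blood, where 19% of all genes passed as higher and 11.9% as lower. Without MI 13 and Blood 21 together, 10 and 9 passed without MSC (19.9% of all genes higher and 18.3% lower), of which 3 ER genes (Eif2ak3, Asns and Sec61b) were lower. With MSC, 14 and 9 passed (22.3% and 18.9%), of which Ern1, Xbp1 and Sec61b were lower. Asns and Sec61b changed direction with the Blood library left out. In MI against Blood, Asns was called lower at -1.43 without MI 13 and Blood 21 and higher at 2.93 without Blood 22, and Sec61b lower at -1.14 without Blood 21 and higher at 1.004 without Blood 22. Blood 21 had 0 reads of Asns and 2 of Sec61b, against 54 and 107 in Blood 22.

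The distance between the 2 systems was also read within each library, where the same scaling applies to both. The mean log2(normalized count + 2) of the 29 ER genes minus that of the 10 heat shock genes was -0.74, -0.81 and -0.97 in MI libraries 13, 19 and 20. It was -0.14, 0.12 and 0.14 in MI + MSC libraries 15, 17 and 18, 0.91 and 1.30 in untreated blood, and 1.32 and 1.33 in blood after MSC. The 4 groups did not overlap, although Blood 22 lay just below both Blood + MSC libraries, with means of -0.84 ± 0.12, 0.04 ± 0.16, 1.11 ± 0.27 and 1.33 ± 0.0052 (SD, n = 3, 3, 2 and 2). The ER mean was 7.33 ± 0.57 in MI and 7.65 ± 0.18 in MI + MSC, overlapping, and the heat shock mean was 8.17 ± 0.67 and 7.60 ± 0.34, also overlapping, whereas the difference within a library did not overlap. Without MI 13, which had the lowest ER mean, the MI means were 7.65 for ER and 8.54 for heat shock genes. In MI + MSC they were 7.65 and 7.60. From MI to MI + MSC, Hspa1a, Hspa1b and Hsph1 fell most, at log2 fold changes of -1.76, -1.81 and -1.20. The first 2 are near copies that count separately in the mean. Other heat shock genes lay between -0.71 (Hsf1) and 0.485 (Dnajb1). Between tissues it was the heat shock mean that moved most, being 5.86 ± 0.01 in Blood and 5.97 ± 0.11 in Blood + MSC. With the 7 cytosolic heat shock genes alone, an alternative chosen after seeing the data, the difference was -1.66 ± 0.33, -0.66 ± 0.28, 0.63 ± 0.42 and 1.04 ± 0.17, and the blood groups overlapped (0.93 in Blood 22 and 0.92 in Blood + MSC 23). No p is given, since the genes were chosen as a set with results of these data known.

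**Figure D4:**
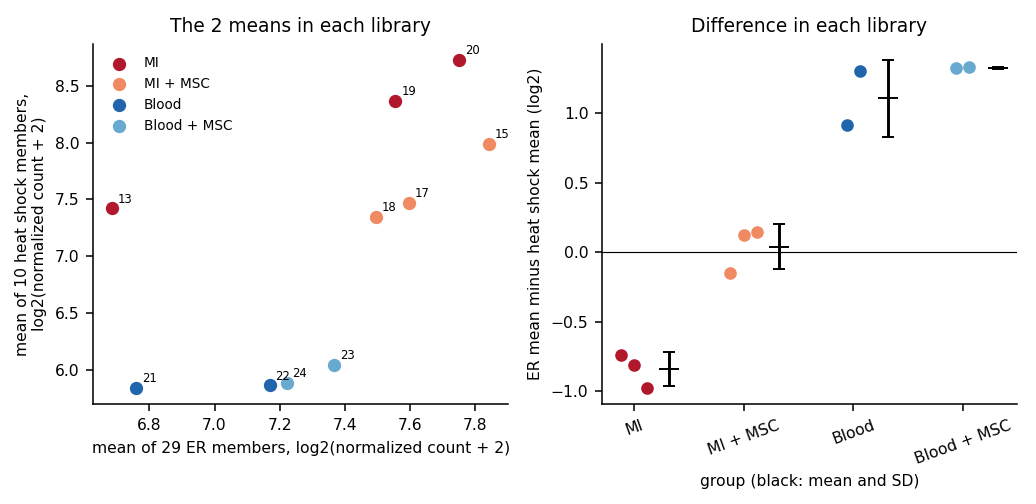
Left: mean log2(normalized count + 2) of 29 ER genes (x axis) and of 10 heat shock genes (y axis) in each library, labelled by library number. Right: their difference by group, with points for libraries and bars for mean and SD; MI lies at -0.97 to -0.74, MI + MSC at -0.14 to 0.14 and all blood libraries at 0.91 or more.

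The question of what MSC did to cardiac Ly6G+ cells was read from MI + MSC against MI, and no gene of the 40 passed in limma, edgeR, DESeq2 or limma-voom. Over all 11549 genes limma and edgeR called 0, with 925 and 968 at an unadjusted p under 0.05. DESeq2 called 76 of the 9756 genes it gave an adjusted p, and limma-voom called 261, of which 39 were higher and 222 lower. At an unadjusted p under 0.05, 3 of 39 were higher (3.26% of all genes) and 3 lower (4.74%), the lower ones all cytosolic heat shock genes. Hspa1a, whose values are given above, overlapped between the groups through MI 13 and MI + MSC 15 and had a log2 fold change of -1.76 ± 0.55 (limma, adjusted p = 0.53). Hspa1b stood at -1.81 ± 0.57 (limma, adjusted p = 0.53) and Hsph1 at -1.20 ± 0.50 (limma, adjusted p = 0.611). By group means, Hspa1a was at 215.7 ± 142.5 normalized counts (SD, n = 3) in MI + MSC and 702.5 ± 396 in MI. Hsp90aa1, Hspa8 and Hspd1 lay at 0.01, 0.00 and -0.01 with standard errors of 0.46, 0.41 and 0.37. Without MI 13, Hspa1a, Hspa1b and Hsph1 stood at -2.19, -2.27 and -1.84, and none passed on the adjusted p.

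The 3 higher genes were Dnajb9 (ERdj4, an Hsp40 that assists degradation) at 1.497 ± 0.67, Atf4 at 1.27 ± 0.51 and Ddit3 at 1.20 ± 0.51 (limma, adjusted p = 0.618, 0.609 and 0.618). Dnajb9 had 25.2, 196 and 210.5 normalized counts without MSC, against 308, 452 and 181 with MSC. In all 3 genes, and in Ppp1r15a and Chac1 (a glutathione-degrading target of Atf4 and Ddit3), libraries 15 and 17 were above every MI library while library 18 lay within the MI range. Chac1 went from 16.8, 42.3 and 54.6 without MSC to 94.0, 209 and 29.8 with them. MI 13 was the lowest cardiac library for Atf4, Ddit3, Dnajb9 and Chac1, with 24, 3, 3 and 2 reads. Without it, Dnajb9, Atf4 and Ddit3 stood at 0.53, 0.73 and 0.72 and were no longer at an unadjusted p under 0.05. Of the 39 genes, none separated the 2 cardiac groups completely in either direction, where 7.05% of all genes did as higher and 9.60% as lower.

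Sums of marker genes also differed between the cardiac libraries, not always in the order of the genes above. The summed neutrophil markers were 8215 and 13560 in MI + MSC 15 and 17 and 2819 in 18, against 2547, 8091 and 5996 in MI. The sum of 12 immediate-early genes was 28100, 42900 and 16490 against 7724, 14350 and 16920. Of the 12, 5 were higher at an unadjusted p under 0.05, where 3.26% of all genes were higher and 4.74% lower. Summed monocyte and macrophage markers were 10250, 5671 and 11520 against 2883, 8093 and 8082, and 1 of the 10 was higher at that p. The cardiomyocyte sum was 3310, 5060 and 13050 against 23740, 24800 and 8364, and 7 of its 10 markers were lower at that p. The endothelial sum was 583, 868 and 1066 in MI + MSC and 2277 to 2472 in MI, without overlap, and 0 of its 8 markers passed on the adjusted p, while all 8 were lower at an unadjusted p under 0.05. Their part in the values of Atf4, Ddit3, Dnajb9, Hspa1a and Hspa1b was not tested.

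**Figure D5:**
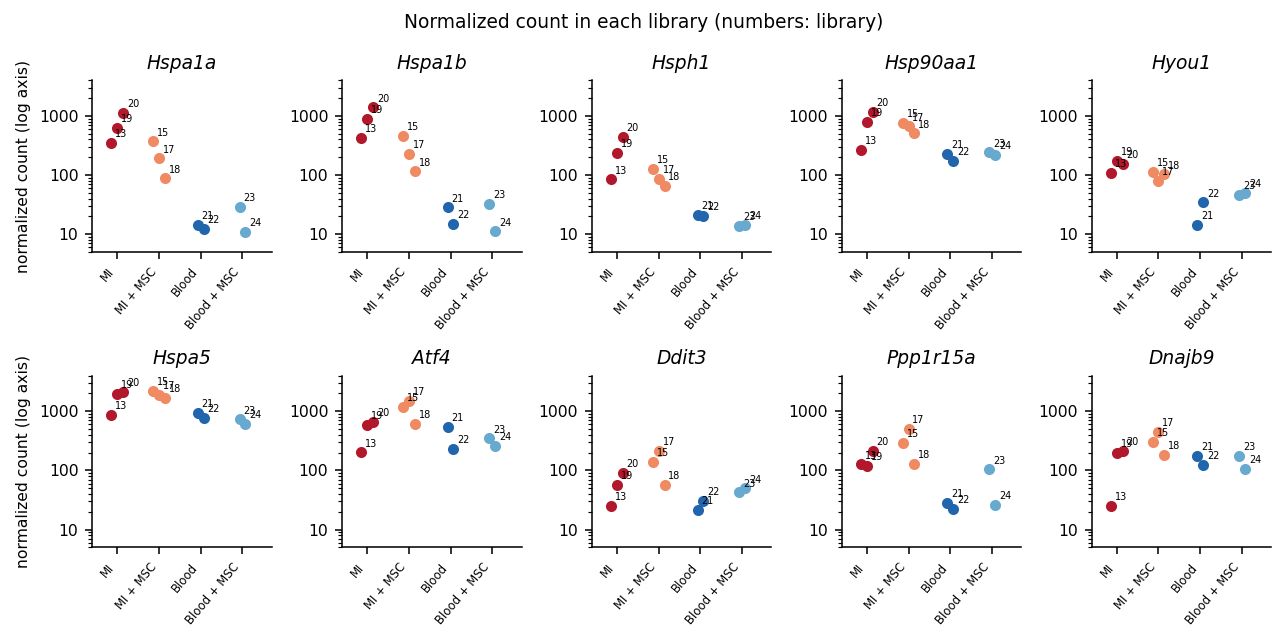
Normalized count (y axis, log scale) of 10 genes in each library, by group, with the library number beside each point. Hspa1a, Hspa1b and Hsph1 stand far above blood in all cardiac libraries, and Atf4, Ddit3, Ppp1r15a and Dnajb9 are highest in MI + MSC 15 and 17.

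In blood, none of the 40 genes passed between Blood + MSC and Blood in limma, edgeR, DESeq2 or limma-voom. Over all genes limma, edgeR and limma-voom called 0, with 848, 856 and 559 at an unadjusted p under 0.05, and DESeq2 called 179. Platelet markers summed to 27380 in Blood 21 and to 601.7 to 1147 in the other blood libraries, and neutrophil markers to 44790 and 53440 in untreated mice against 23730 and 16760 after MSC. Their part was not tested. At an unadjusted p under 0.05, 3 of 39 were higher (4.35% of all genes) and none lower (3.00%). Hyou1 had 46.5 and 50.1 in Blood + MSC and 14.1 and 34.4 in Blood, at 1.05 ± 0.41. Ern1 stood at 0.87 ± 0.31 and Hsf1, with 37.3 and 37.2 against 14.1 and 19.5, at 1.08 ± 0.42 (limma, adjusted p = 0.672 for each). Hspa5, Hspa1a, Hspa1b and Hsp90aa1 had log2 fold changes of -0.37 ± 0.48, 0.39 ± 0.67, -0.09 ± 0.70 and 0.21 ± 0.56. Whether MSC acted differently in heart and blood was tested as an interaction, in which no gene of the 40 passed in limma, edgeR, DESeq2 or limma-voom. Over all genes limma, edgeR and limma-voom called 0, with 838, 815 and 646 at an unadjusted p under 0.05, and DESeq2 called 18 of the 2144 genes it gave an adjusted p. Without Blood 22, 3 ER genes (Hyou1, Asns and Sec61b) passed in Blood + MSC against Blood and in the interaction, where 1506 and 1095 of all genes passed. At an unadjusted p under 0.05 there were 4 of 39, against 7.26% of all genes (272 positive and 566 negative of 11549). In each of the 4, the log2 fold change after MSC was lower in the heart than in blood. The interaction was -2.16 ± 0.87 for Hspa1a, -1.79 ± 0.54 for Hsf1, -1.60 ± 0.53 for Hyou1 and -0.97 ± 0.40 for Ern1 (limma, adjusted p = 0.63 for each). The MSC comparisons share the MI and Blood libraries with the comparisons of tissue.

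Further genes of the same pathways were read from 4 lists. In MI against Blood, 5 of 5 small heat shock proteins, 6 of 25 other chaperone genes, 3 of 15 other genes of the integrated stress response and 3 of 32 other ER genes passed as higher. Of the same lists, 0, 0, 3 and 6 passed as lower, beside 21.2% higher and 13.5% lower over all genes. With MSC in both tissues, 4, 1, 1 and 1 passed as higher and 0, 0, 1 and 3 as lower, beside 8.23% and 5.85%. Hspb7, a small heat shock protein of heart muscle, had 807, 732.5 and 345 normalized counts in the MI libraries. After MSC the cardiac libraries had 138, 275.5 and 430, and no blood library exceeded 1.30, with log2 fold changes of 7.85 ± 0.50 and 6.36 ± 0.50 (limma, adjusted p = 5.43e-06 and 6e-05). It followed the cardiomyocyte markers, being higher in MI 13 and 19 than in MI 20. Bag3, an Hsp70 co-chaperone induced by Hsf1, had 92.45, 110 and 80.8 in MI against 0 and 11.7 in Blood, at 4.19 ± 0.65 (limma, adjusted p = 0.00106). Hspa9, the mitochondrial Hsp70, led the chaperone list with MSC, with 169.7, 181 and 183 against 64.4 and 81.3, at 1.28 ± 0.30 (limma, adjusted p = 0.0176). Aars1, an alanyl-tRNA synthetase, led the integrated stress response without MSC at 2.48 ± 0.48 and Atf3, a stress-induced factor, with MSC at 2.40 ± 0.42 (limma, adjusted p = 0.0033 and 0.00421). Aars1 had 142.9, 76.9 and 65.4 in MI 13, 19 and 20 against 7.07 (1 read) and 27.9 in Blood 21 and 22. With MSC it had 64.2, 71.2 and 68.5 against 55.4 and 55.2, and did not pass at 0.29 ± 0.48. Among ER genes Wfs1, a membrane protein, led both comparisons at 3.39 ± 0.52 and 1.85 ± 0.52 (limma, adjusted p = 0.000993 and 0.0379). Its cardiac libraries ranged from 18.2 to 33.6 and its blood libraries from 0 to 4.38.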

How the data were processed

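The authors trimmed reads with Trimmomatic, removed duplicates with Picard, mapped to GRCm39 with STAR, used featureCounts for strand-aware counting, dropped reads of the mitochondrial genome and scaled by DESeq2, per the submitters' processing notes and the methods. Both deposited tables hold the same signal, normalized counts made by the authors by dividing the count of each gene by the size factor of its library, in all 281850 values. Divided by the value of 1 read, 100% of the entries in every library came out whole (tolerance 0.1 read), which gave the reads of each gene. TPM used the length of the canonical transcript in GENCODE (GRCm39).

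limma 3.58.1 (R 4.3.3) with an intensity trend was fitted to log2(normalized count + 2) of genes with a mean of at least 10, with 1 mean per group over all 10 libraries. Fold changes on that scale understate changes of low genes. A gene passed at a Benjamini-Hochberg adjusted p under 0.05 over all 11549 genes if its log2 fold change was also at least 0.5 in size. For the interaction the adjusted p alone was used. edgeR 4.0.16 and DESeq2 1.42.0 on the recovered reads, limma-voom, other scalings, pseudocounts and filters, and fits without each library were alternatives. The limma, edgeR, DESeq2 and voom fits were tested on simulated data. edgeR and DESeq2 called 4104 and 3974 of all genes in MI against Blood, and 3693 and 3353 in MI + MSC against Blood + MSC. Shared sequence was found with blastn (stretches of at least 100 bases at 98% identity). Python 3.11.15, pandas 2.3.3 and matplotlib 3.10.9 were used.

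The genes, lists and tests were chosen with earlier results of these data known. Values in every library are given for the 5 largest rises and falls that passed in each comparison of tissue, for genes at an unadjusted p under 0.05 (at most 8) in each MSC comparison, and for Hspa5, Xbp1, Ddit3, Atf4, Hspa1a, Hspa1b and Hsp90aa1. The other lists are named by the gene that passed with the largest change. Promoters are RefSeq windows of 250 bases before to 50 after the start on GRCm38.p6, found for 32 of the 40 genes, and are shown up to the start. Protein sequences were not used here. Depth limits genes of few reads, mainly in MI 13 and Blood 21, and counts of reads cover counting error alone.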

Additional observations from a re-analysis of the deposited data

How the results depend on the processing

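Hspa1a, Hspa1b, Hsph1, Hsp90ab1, Hspd1 and Hyou1 passed in MI against Blood in all 20 alternatives. Asns and Sec61b, which passed in neither direction in MI against Blood, passed as lower without MI 13 and Blood 21 (-1.43 and -1.02) and as higher without Blood 22 (2.93 and 1.004). No other of the 40 genes was called in both directions within a comparison. ER gene counts in MI against Blood were 8 with library size scaling, 4 in edgeR, 6 in DESeq2 and 10 without MI 13 and Blood 21, against 2, and 2 to 8 when 1 library was left out. In MI + MSC against Blood + MSC they were 1 with a mean of at least 1, 7 in edgeR, 8 in DESeq2, 10 in limma-voom and 14 without both shallow libraries, against 2, and 0 to 7 when 1 was left out. Heat shock counts there were 7 in DESeq2, 8 in limma-voom and 9 without both, against 4, and 0 to 7 when 1 was left out. In MI against Blood they stayed at 6 to 9. Blood + MSC against Blood gave 0 to 3 ER genes and the interaction 0 to 3 genes when 1 was left out, with 3 without Blood 22. The other pathway genes that passed were 17 in limma-voom against 26 in MI against Blood. With MSC they were 22 in edgeR, 19 in DESeq2, 28 in limma-voom and 28 without both shallow libraries, against 11, and 2 to 17 when 1 was left out. With the 7 cytosolic genes alone, an alternative chosen after seeing the data, the ER minus heat shock difference went to -2.29 from -1.95 (MI minus Blood), to -1.70 from -1.29 (with MSC) and to 0.41 from 0.22 (Blood + MSC minus Blood). The cause of these moves was not tested.

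Library size scaling moved the median of all genes in MI against Blood from 0.15 to 0.63, and TMM scaling to 0.06. Leaving out a library of a pair assumes that the lone library varies like the other groups. No paired analysis was possible because the labels do not say which cardiac and blood libraries share a mouse.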
